A study of Rattus norvegicus with 6 samples.

Results

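The genes described here serve the uptake of filtered protein in the kidney and its breakdown in lysosomes, together with autophagy. They are 39 genes taken from a written list. The rule of choice used no measured value, but the list was chosen with earlier results of these data known. The list holds 4 endocytic receptor genes, 10 cathepsin and legumain genes, 10 other lysosomal hydrolase and cofactor genes, 5 lysosomal membrane protein genes and 10 autophagy genes. Of the 39 genes, 38 were matched to at least 1 probe, out of 15284 genes named on the array. No probe was matched to Naglu, which encodes a hydrolase of heparan sulfate, and it was not analysed here. All 38 matched genes passed the filter on dim probes.

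Gene expression was measured in renal cortex of male Sprague-Dawley (Crl:CD(SD)) rats bought at 5 weeks of age. The control group of 3 rats received corn oil for 4 weeks, and the treated group of 3 rats received anthraquinone, an aromatic diketone, at 1000 mg/kg/day for the same 4 weeks. All animals were kept on the same basal diet. RNA of each animal was labelled with Cy3 and hybridised to its own 1-colour Agilent array, so each value is from bulk cortex. Values are log2 processed intensity minus the 75th percentile of the same array, on which 0 is the 75th percentile. The 3 values of a group are given in the order of its replicate numbers. A change is the anthraquinone mean minus the corn oil mean on this scale, and levels of different probes are not comparable.

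The 75th percentile of intensity was between 903 and 1190 in the corn oil arrays and between 844 and 880 in the anthraquinone arrays. Between 68.7 and 70.7% of probes were well above background in the corn oil arrays, and between 64.2 and 66.1% in the anthraquinone arrays. Corn oil replicate 1 was alone on its slide and scan, and the other 5 arrays shared 1 slide. There, the 2 control arrays were in the first row and the 3 treated arrays in the second, so row and treatment cannot be told apart there. The number of arrays limits the precision of every value.

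The proximal tubule of the cortex recovers filtered proteins through the receptors megalin and cubilin, which carry them by clathrin-coated vesicles to endosomes and lysosomes. In the acidic lysosome, cathepsins cut the proteins and other hydrolases degrade glycans and lipids. Autophagy delivers the cell's own proteins and organelles to the same lysosomes in vesicles that carry LC3 and GABARAP proteins, and selective receptors such as p62 bind the cargo. The transcription factor TFEB activates many lysosomal and autophagy genes through a CACGTG-containing promoter element.

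Promoter windows of the genes were read from RefSeq on build GRCr8, from 250 bases before to 50 bases after each gene's start, and 34 of the 39 genes had one. The letters CACGTG, which read the same on both strands, occurred in 7 of the 34 windows (20.6%) and in 6.42% of all 33469 windows. These were the windows of Amn, Atg5, Ctsd, Gaa, Glb1, Lamp1 and Mcoln1. The longer form TCACGTGA, which contains CACGTG, occurred in 3 windows (8.82%, against 0.777% of all windows), those of Ctsd, Lamp1 and Mcoln1. The 10-base palindrome of the CLEAR element, which extends that form by 1 base on each side, occurred in 0 of the 34 windows and in 0.233% of all. The core of the antioxidant response element, TGACNNNGC on either strand, occurred in 9 windows (26.5%, against 12.1%), those of Amn, Ctsa, Ctsc, Ctsd, Ctsl, Map1lc3b, Naglu, Npc1 and Npc2. A match is a description of letters and not of a bound site. The 250 bases before the start are shown, 5′ to 3′ on the gene's strand, for the gene with the highest change (Sqstm1), the hydrolase gene with the highest change (Gaa) and 2 genes with the longer form before the start (Ctsd and Lamp1). Capitals mark CACGTG or, where present, TCACGTGA. The Sqstm1 stretch (chr10:35037751-35038000, minus strand) holds neither. The Gaa stretch is chr10:105028105-105028354 on the plus strand, the Ctsd stretch chr1:206968822-206969071 on the minus strand and the Lamp1 stretch chr16:83075064-83075313 on the minus strand.
Sqstm1: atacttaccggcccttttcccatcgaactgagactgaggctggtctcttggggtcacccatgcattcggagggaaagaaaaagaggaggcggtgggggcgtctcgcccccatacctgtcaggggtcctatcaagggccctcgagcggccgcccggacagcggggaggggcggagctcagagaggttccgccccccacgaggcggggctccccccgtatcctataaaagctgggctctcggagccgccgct
Gaa: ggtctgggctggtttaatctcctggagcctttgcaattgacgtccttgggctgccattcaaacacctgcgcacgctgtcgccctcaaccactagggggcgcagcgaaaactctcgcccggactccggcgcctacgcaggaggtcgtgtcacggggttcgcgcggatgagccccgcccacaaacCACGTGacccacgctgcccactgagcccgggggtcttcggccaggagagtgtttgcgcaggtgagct
Ctsd: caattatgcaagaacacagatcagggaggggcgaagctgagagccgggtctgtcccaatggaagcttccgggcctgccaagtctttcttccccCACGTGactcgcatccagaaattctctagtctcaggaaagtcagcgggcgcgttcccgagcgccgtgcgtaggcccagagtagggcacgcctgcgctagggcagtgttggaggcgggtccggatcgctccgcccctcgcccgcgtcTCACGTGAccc
Lamp1: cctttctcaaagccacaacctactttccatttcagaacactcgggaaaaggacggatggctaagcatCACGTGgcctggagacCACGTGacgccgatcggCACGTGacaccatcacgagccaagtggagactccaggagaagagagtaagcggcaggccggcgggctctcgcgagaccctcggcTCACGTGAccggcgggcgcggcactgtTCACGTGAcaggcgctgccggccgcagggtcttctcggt
Lamp1 held 5 CACGTG matches, the most of any of these genes, and its change was 0.09. The changes of the 7 genes with a match ran from -0.15 for Atg5 to 0.35 for Gaa.

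None of the 38 genes passed the test. With limma and adjustment over all entries tested, 0 of 38 had an adjusted p under 0.05, where 9 of 32663 entries (0.0276%) passed. At an unadjusted p under 0.05, 10 genes were higher after anthraquinone (Sqstm1, Gabarapl1, Gaa, Ctsl, Lipa, Ctss, Map1lc3b, Hexa, Npc2 and Ctsd) and Gusb was lower. The corresponding shares of all entries were 9.43% higher and 7.69% lower. That count of 11 genes became 7 or 6 when corn oil replicate 1 or 3 was left out, and 4 or 5 when anthraquinone replicate 2 or 3 was. The count over all 32663 entries also fell, from 5593 to 4631 without corn oil replicate 1 (the fit with the slide as a block). For the other arrays left out, the counts over all entries are not given here. The 3 anthraquinone values lay above the 3 corn oil values in 12 of 38 genes, where this held for 14.9% of all entries. They lay below in 1 gene, Gusb, where this held for 10.3% of all entries. Separated groups of 3 give a two-sided exact permutation p of 0.1, the smallest this design allows. In bulk cortex, fewer cells of a type and less RNA per cell cannot be told apart.

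**Figure D1:**
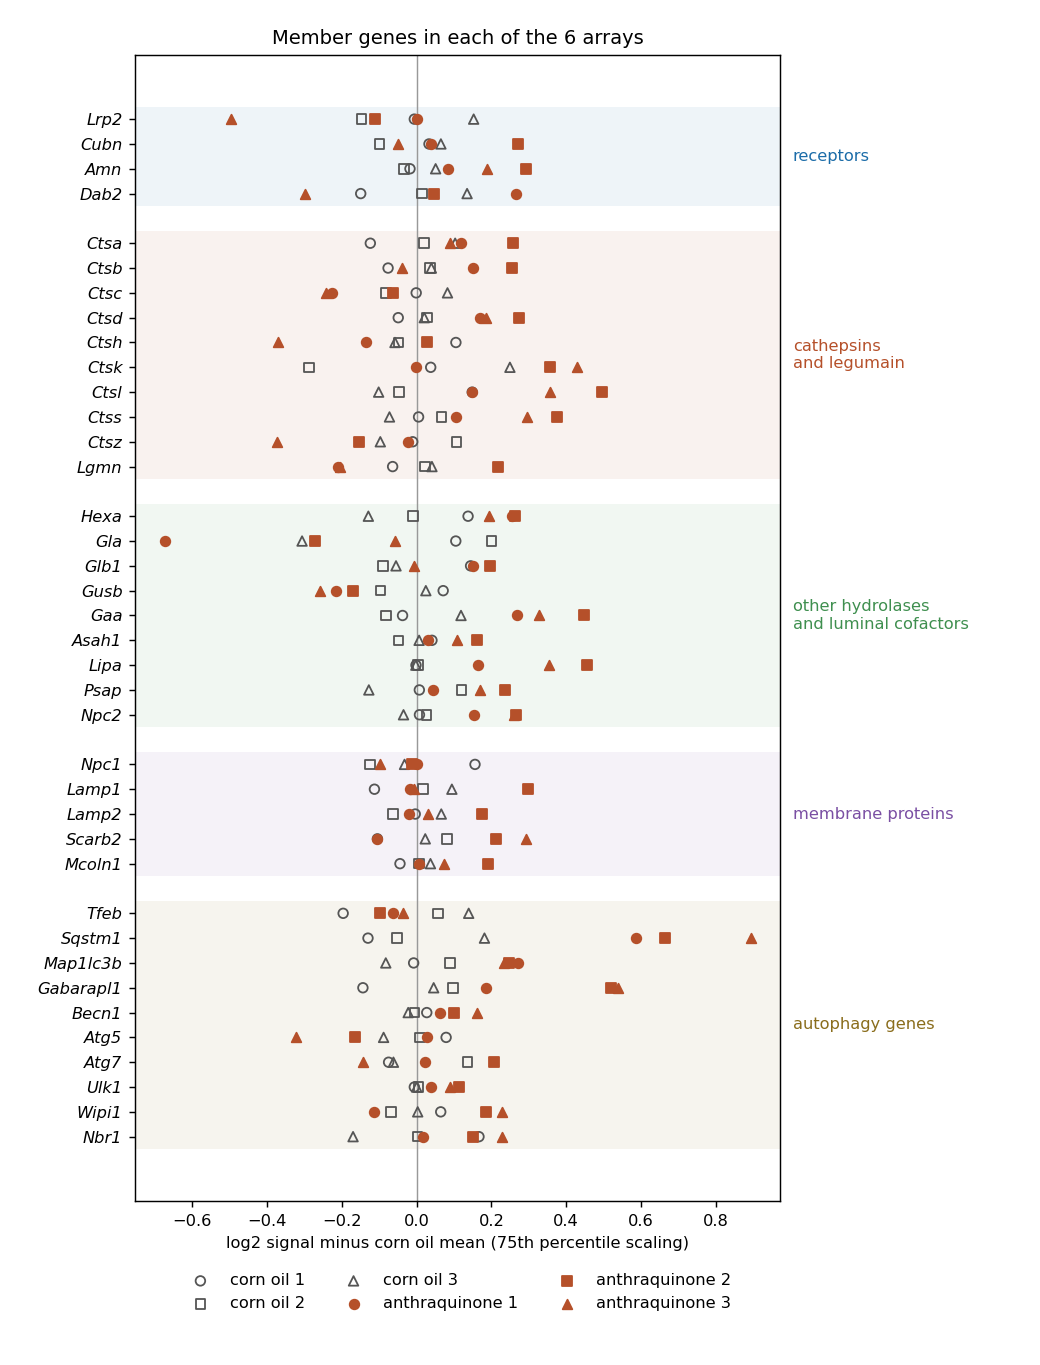
Each of the 38 measured genes is a line, and the horizontal axis gives each array's log2 signal minus the corn oil mean of that gene, with open grey symbols for the 3 corn oil arrays and filled symbols for the 3 anthraquinone arrays. Sqstm1 stands farthest to the right, the Gusb values of anthraquinone lie to the left of all its corn oil values, and anthraquinone replicate 2 is often the rightmost symbol.

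The size of a change varied with the brightness of the probe, and most of these genes were bright. When all entries were put in 5 equal classes of mean signal, 25 of the 38 genes were in the brightest, 6 in each of the next 2, 1 in the second lowest and 0 in the lowest. The median change of all entries in the brightest class was 0.10, against -0.10 in the dimmest. In the brightest class 72.7% of all entries had a change above 0, as did 21 of the 25 genes there. In the same class 36.5% of all entries had anthraquinone values above all corn oil values, and 11 of the 25 genes did so. At an unadjusted p under 0.05 by limma, 10 of the 25 were higher, against 23.4% of entries in the class, and 0 lower, against 2.76%. After quantile normalization, which gives every array the same distribution of intensities, the median of the brightest class was 0.009. Of the same 25 genes, 6 then had values above all corn oil values, against 17.3% of entries in that class. Over the 38 genes, the median change was 0.10 with 28 values above 0, and 0.03 with 23 above 0 after quantile normalization. Over all entries, 51.5% and 50.2% of values were above 0. The calls at an unadjusted p under 0.05 were then 5 higher and 3 lower, with shares of 7.10% and 7.40% over all entries. Values of both scalings are therefore given below for the 38 genes, and for further genes and markers where stated.

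**Figure D2:**
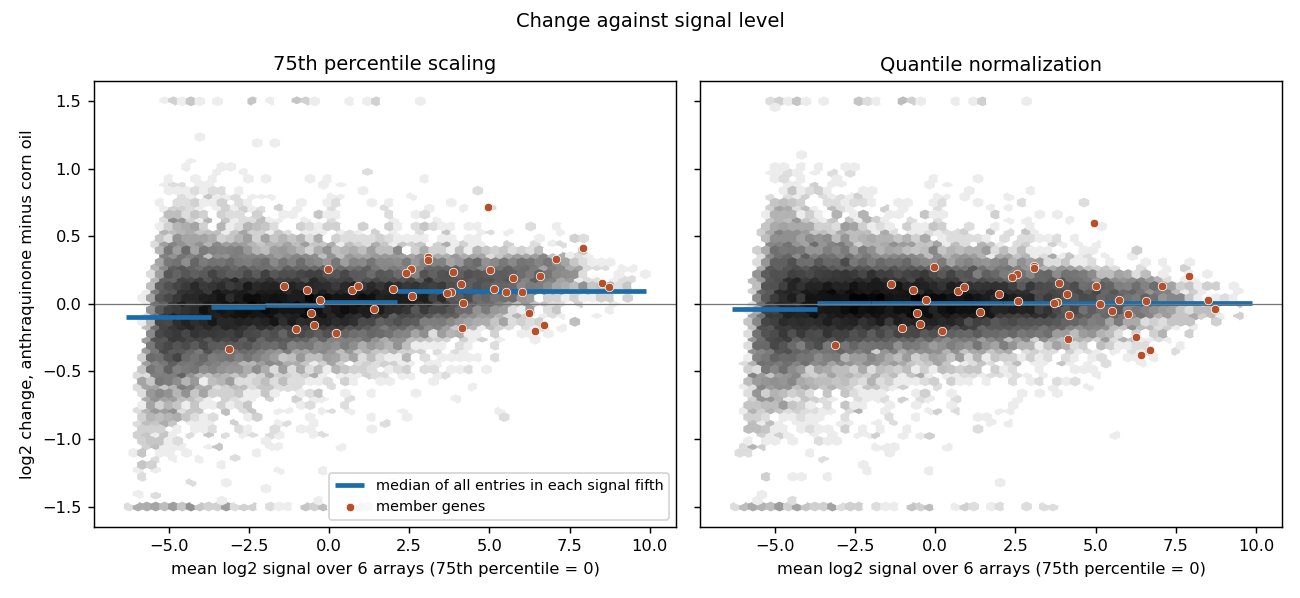
The horizontal axis gives the mean log2 signal over the 6 arrays and the vertical axis the log2 change, with 75th percentile scaling on the left and quantile normalization on the right. Grey cells hold all 32663 entries, with values past the edge drawn at the edge. Blue lines are the median change of each signal class and orange points the 38 genes, of which 25 lie in the brightest class, where the median moves from 0.10 to 0.009.

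Among the receptor genes, the median change was 0.05, and -0.07 after quantile normalization, beside 0.01 and 0.00 over all entries. Lrp2 encodes megalin, the large receptor that binds most filtered proteins. Its values were 6.52, 6.38 and 6.68 after corn oil and 6.53, 6.42 and 6.03 after anthraquinone. Anthraquinone replicate 3 alone lay below all corn oil values, and the groups overlapped. The change was -0.20 ± 0.15 (SE, n = 3 per group, limma adjusted p = 0.536), and -0.05 without anthraquinone replicate 3. After quantile normalization it was -0.38. A second, dimmer Lrp2 probe had values of 5.96, 5.87 and 5.62 after corn oil and 5.62, 5.39 and 5.26 after anthraquinone, a change of -0.39 ± 0.13 (limma adjusted p = 0.234 over all probes). Only its lowest corn oil and highest anthraquinone values touched.

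Cubn encodes cubilin, the receptor that works with megalin, and had a change of 0.09 (-0.05 after quantile normalization). Amn encodes amnionless, which carries cubilin to the cell surface. Its values were 5.61, 5.60 and 5.68 after corn oil and 5.72, 5.92 and 5.82 after anthraquinone. All 3 treated animals were above all 3 controls, by 0.19 ± 0.08 (limma adjusted p = 0.311), but the change was 0.03 with overlapping groups after quantile normalization. Dab2, the clathrin adaptor of megalin, had a change of 0.005 ± 0.16 (-0.08 after quantile normalization), with anthraquinone values on both sides of the control range. The cubilin and amnionless genes, whose proteins form 1 complex, thus had the same sign under 75th percentile scaling. After quantile normalization both changes were smaller than their SE (0.11 for Cubn and 0.08 for Amn), so their opposite signs carry no information.

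Markers of the proximal tubule, the cell that carries these receptors, were measured beside them. All 10 markers passed the filter and lay in the brightest class, 8 had changes above 0 (72.7% of entries in that class), and 0 passed the limma test. At an unadjusted p under 0.05, 2 of them were higher (23.4% of entries in that class). Their median change was 0.11, and -0.07 after quantile normalization, where the receptor genes had 0.05 and -0.07. Their summed linear signal, in units of the 75th percentile, was 2058 to 2305 in corn oil and 2322 to 2539 in anthraquinone arrays. The same sum over all entries was also higher, at 2.50e+05 to 2.63e+05 in corn oil and 2.78e+05 to 2.85e+05 in anthraquinone arrays. The phosphate transporter gene Slc34a1 had a change of 0.05, the glucose transporter gene Slc5a2 0.11 and the lactate transporter gene Slc5a12 0.49. Their part in the receptor values was not tested.

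The cathepsins and legumain are the proteases of the lysosome, and their genes had values on both sides of 0. Of 10 genes, 6 had changes above 0, beside 51.5% of all entries. In the brightest class 5 of 8 did, against 72.7% of entries, and 2 of 8 had treated values above all controls, against 36.5%. After quantile normalization 1 of these 8 had such values, against 17.3%. Treated values lay below all controls in 0 of the 10 genes, where 10.3% of all entries had this. After quantile normalization they did in 2 of the 10, against 10.6% of all entries. The median change of the 10 genes was 0.14, and -0.01 after quantile normalization. Ctsd encodes the aspartic protease cathepsin D. Its values were 6.43, 6.51 and 6.50 after corn oil and 6.65, 6.75 and 6.66 after anthraquinone. Every treated animal was above every control, with a change of 0.21 ± 0.07 (limma adjusted p = 0.237). After quantile normalization the change was 0.02 and the groups overlapped. Ctsl encodes cathepsin L, an endopeptidase of the proximal tubule lysosome among others. Its values were 7.06, 6.86 and 6.81 after corn oil and 7.05, 7.40 and 7.26 after anthraquinone. Anthraquinone replicate 1 was level with corn oil replicate 1, and the change was 0.33 ± 0.12 (limma adjusted p = 0.251), or 0.13 after quantile normalization. The other Ctsl probe had a change of 0.37 with groups apart.

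Ctss encodes cathepsin S, a protease best known from macrophages and other antigen-presenting cells. Its values were 2.44, 2.50 and 2.36 after corn oil and 2.54, 2.81 and 2.73 after anthraquinone. The groups did not overlap under either scaling, and the change was 0.26 ± 0.10 (limma adjusted p = 0.260), or 0.22 after quantile normalization. The second Ctss probe had a change of 0.22 with overlapping groups. Ctsk, which encodes the collagen-degrading cathepsin K, had a change of 0.26 ± 0.18 (0.27 after quantile normalization) with overlapping groups, and leaving out 1 array at a time gave 0.12 to 0.39.

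Of 18 macrophage markers, 17 were tested and Cd163 was not well above background. Only 6 had changes above 0, the median was -0.14 (-0.15 after quantile normalization), and their summed linear signal was 129 to 143 in corn oil and 117 to 128 in anthraquinone arrays. That sum is dominated by Lyz2, by far the brightest of these markers, with means of 6.50 after corn oil and 6.22 after anthraquinone. The change of Lyz2 was -0.28 with overlapping groups, so the sum does not describe the list as a whole. The defining markers Cd68, Csf1r and Adgre1 had changes of 0.10, -0.23 and -0.26. The complement genes C1qa, C1qb and C1qc, chosen after their values were seen, had changes of 0.39, 0.31 and 0.32 with groups apart under 75th percentile scaling. They were the only 3 of the 17 markers with treated values above all controls, where 14.9% of all entries had this. After quantile normalization 1 of the 17 had this, against 12.0% of all entries. With limma, 0 of 17 passed the adjusted test. At an unadjusted p under 0.05, 1 was higher (C1qa) and 1 lower (Csf1r), where 9.43% and 7.69% of all entries were. Csf1r was also the only 1 of the 17 with treated values below all controls, where 10.3% of all entries had this. After quantile normalization 2 of the 17 had treated values below all controls, against 10.6% of all entries. The part of these cells in the Ctss and Ctsk values was not tested.

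Ctsc, Ctsh, Ctsz and Lgmn had changes below 0. Ctsc encodes dipeptidyl peptidase 1, and its values were 4.24, 4.16 and 4.32 after corn oil and 4.02 and 4.18 in anthraquinone replicates 1 and 2, with replicate 3 just below replicate 1. Anthraquinone replicate 2 lay inside the control range, and the change was -0.18 ± 0.09 (limma adjusted p = 0.355). After quantile normalization it was -0.26 with every treated animal below every control. Ctsh encodes the aminopeptidase cathepsin H, and its values were 6.88, 6.72 and 6.71 after corn oil and 6.64, 6.80 and 6.40 after anthraquinone. Again only anthraquinone replicate 2 lay in the control range. The change was -0.16 ± 0.12 (limma adjusted p = 0.534) and, after quantile normalization, -0.34 with separate groups. Ctsz, the gene of the carboxypeptidase cathepsin Z, had a change of -0.18 ± 0.11 (-0.18 after quantile normalization) with overlapping groups. Lgmn encodes legumain, which cuts after asparagine and processes other cathepsins, and had a change of -0.07 ± 0.13 (-0.24 after quantile normalization).

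Ctsa and Ctsb differed from these. Ctsa, which encodes the carboxypeptidase that also protects other hydrolases, had changes of 0.16, 0.10 and 0.05 at its 3 probes, all with overlapping groups, and 0.03 at the brightest after quantile normalization. Ctsb, the cathepsin B gene, had a change of 0.12 ± 0.10 that became -0.04 after quantile normalization. Leaving out single arrays gave 0.06 to 0.20 for it under 75th percentile scaling.

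The other hydrolases and luminal cofactors held the largest share of genes with separate groups among the enzyme groups. Of 9 measured genes, 7 had changes above 0, 4 had all treated values above all control values, and 1 had them below. The shares of all entries were 51.5%, 14.9% and 10.3%. In the brightest class, where 36.5% of entries had treated values above all controls, 4 of the 6 genes of this group did. After quantile normalization 3 of these 6 did, against 17.3% of entries in that class. The median change was 0.15, and 0.10 after quantile normalization. Gaa encodes acid alpha-glucosidase, which degrades glycogen in lysosomes. Its values were 2.88, 2.83 and 3.03 after corn oil and 3.18, 3.36 and 3.24 after anthraquinone. The lowest treated animal was above the highest control, and the change was 0.35 ± 0.09, or 1.27-fold (95% interval of the log2 change 0.13 to 0.57, limma adjusted p = 0.198). After quantile normalization it was 0.28 and the groups stayed apart.

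Lipa and Npc2 had separate groups as well. Lipa encodes lysosomal acid lipase, which frees cholesterol from its esters. Its values were 2.92, 2.92 and 2.92 after corn oil and 3.09, 3.38 and 3.28 after anthraquinone. The change was 0.32 ± 0.09 (limma adjusted p = 0.211), and 0.26 after quantile normalization. Npc2 encodes the luminal protein that hands this cholesterol to the membrane protein NPC1. Its values were 2.30, 2.32 and 2.26 after corn oil and 2.45, 2.56 and 2.56 after anthraquinone, with a change of 0.23 ± 0.07 (limma adjusted p = 0.221) and 0.20 after quantile normalization. In Lipa and Npc2 the treated animals were above all controls under both scalings. Npc1, described with the membrane proteins, had a change of -0.04.

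Hexa encodes the alpha subunit of beta-hexosaminidase, which trims gangliosides. Its values were 3.89, 3.74 and 3.62 after corn oil and 4.01, 4.01 and 3.95 after anthraquinone. The groups were apart by less than the spread of the controls, with a change of 0.24 ± 0.09 (limma adjusted p = 0.267), and they overlapped after quantile normalization (0.16). Psap, which encodes the precursor of the saposins, had a change of 0.15 ± 0.10 (0.07 after quantile normalization). Asah1, the acid ceramidase gene, had 0.10 ± 0.07 under either scaling (0.10 after quantile normalization). Glb1, the beta-galactosidase gene, had 0.11 ± 0.10, which became -0.002 after quantile normalization.

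Gusb and Gla had values below 0. Gusb encodes beta-glucuronidase, and its brightest probe gave 0.40, 0.23 and 0.35 after corn oil and 0.12, 0.16 and 0.07 after anthraquinone. Each treated animal was below each control, with a change of -0.21 ± 0.08 (limma adjusted p = 0.254) and -0.20 after quantile normalization. The same separation was seen at the other 2 Gusb probes, whose changes were -0.34 and -0.43 (limma adjusted p = 0.176 and 0.183 over all probes). Gla, the alpha-galactosidase A gene, was dim and spread widely, with values of -2.86, -2.76 and -3.27 after corn oil and -3.63, -3.23 and -3.02 after anthraquinone. Its change of -0.33 ± 0.20 (-0.31 after quantile normalization) was within that spread.

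The 5 membrane protein genes had no separate groups under either scaling, and their changes lay between -0.04 and 0.13. The median was 0.09, and 0.01 after quantile normalization. Lamp1 and Lamp2 encode the abundant glycoproteins that line the lysosomal membrane, and had changes of 0.09 (-0.08 after quantile normalization) and 0.06 (0.02). Scarb2 encodes LIMP-2, the carrier of glucocerebrosidase, and had 0.13 (0.15). Mcoln1 encodes the calcium channel TRPML1 and had 0.09 (0.01). Anthraquinone replicate 2 was the highest array for Lamp1, Lamp2 and Mcoln1, and without it the median of the group was 0.006.

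Npc1 shows how much probes of a gene can differ. Its 6 tested probes had changes from -0.62 to 0.52, and 1 further probe was well above background on 1 array only. The brightest gave 1.58, 1.30 and 1.40 after corn oil and 1.43, 1.41 and 1.33 after anthraquinone, a change of -0.04 ± 0.09 (-0.06 after quantile normalization). Both extreme values came from the 2 dimmest tested probes, and 5 of the 6 were below 0. Over the 17 genes with more than 1 tested probe, all probes had the same sign in 13. In Ulk1 the brighter probe had all treated values above the controls and the dimmer probe all below them (0.08 and -0.22).

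The autophagy genes held the highest change. Of 10 genes, 8 had changes above 0 and 5 had treated values above all control values, where 51.5% and 14.9% of all entries did. In the brightest class 4 of 4 genes of this group had treated values above all controls, against 36.5% of entries. After quantile normalization 2 of these 4 did, against 17.3%, and 3 of all 10 did, against 12.0% of all entries. The median change was 0.10, or 0.09 after quantile normalization. Sqstm1 encodes p62, the receptor that binds ubiquitinated cargo and LC3. Its brightest probe gave 4.46, 4.54 and 4.77 after corn oil and 5.18, 5.26 and 5.48 after anthraquinone. The lowest treated animal was above the highest control by more than the spread within either group. The mean was 4.59 ± 0.16 after corn oil and 5.31 ± 0.16 after anthraquinone (SD, n = 3 each), a change of 0.71 ± 0.12 (SE), or 1.64-fold (95% interval of the log2 change 0.42 to 1.01, limma adjusted p = 0.154). After quantile normalization the change was 0.60 with groups apart. Over 17 other settings it lay between 0.60 and 0.84, with limma adjusted p from 0.0202, where dim probes were not filtered out, to 0.351, without corn oil replicate 2.

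Sqstm1 had 5 probes, and on each of them every treated animal was above every control. Their changes were 0.71, 0.75, 0.88, 1.03 and 0.82, from the brightest to the dimmest. When every probe was tested on its own, an alternative chosen after the data were seen, 14 of 41310 probes (0.0339%) passed. The probe A_64_P149735 was among them. It gave 2.48, 2.43 and 2.43 after corn oil and 3.40, 3.45 and 3.59 after anthraquinone, with a rise of 1.03 ± 0.08 (limma adjusted p = 0.0403). This call was lost when any 1 array was left out: the adjusted p by limma was 0.171 and 0.155 without corn oil replicates 1 and 2, 0.0951 without corn oil replicate 3, and 0.0708, 0.140 and 0.0849 without anthraquinone replicates 1, 2 and 3. The value itself stayed between 0.98 and 1.07. The other 4 probes did not pass, with limma adjusted p of 0.105 to 0.145.

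**Figure D3:**
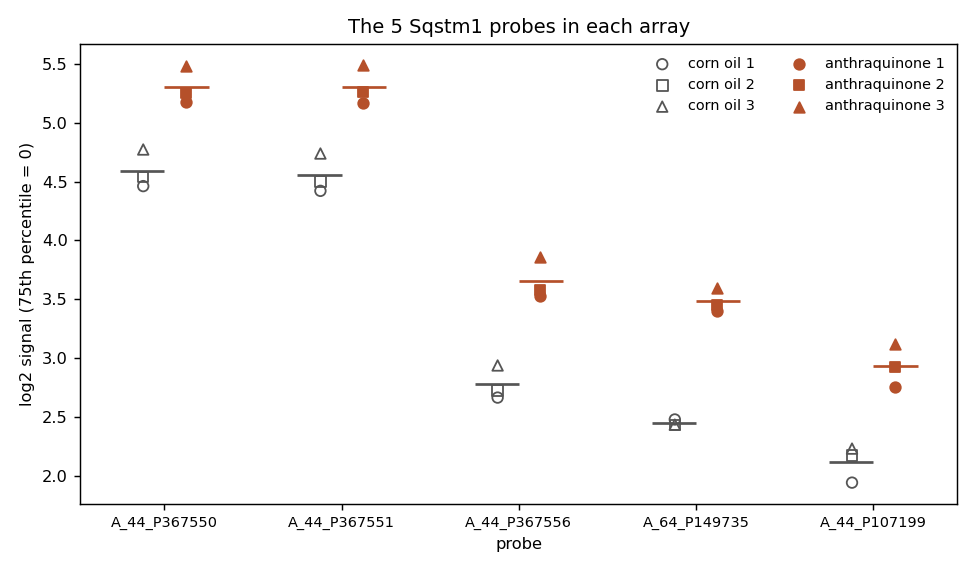
The 5 Sqstm1 probes are placed along the horizontal axis, and the vertical axis gives the log2 signal relative to the 75th percentile of each array, with open symbols for corn oil, filled symbols for anthraquinone and bars for the group means of 3. On every probe all filled symbols lie above all open ones, and the distance between means is 0.71 to 1.03.

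The genes of the LC3 and GABARAP proteins, which coat the autophagosome, had smaller changes. Map1lc3b gave 4.88, 4.97 and 4.80 after corn oil and 5.15, 5.13 and 5.12 after anthraquinone. The treated animals lay close together and above all controls under both scalings, with a change of 0.25 ± 0.08 (limma adjusted p = 0.216) and 0.14 after quantile normalization. Its other 2 probes had 0.17 and 0.12 with overlapping groups. Gabarapl1 gave 7.57, 7.81 and 7.75 after corn oil and 7.89, 8.23 and 8.25 after anthraquinone, a change of 0.41 ± 0.13, or 1.33-fold (limma adjusted p = 0.218). Its second probe had the same change of 0.41. Anthraquinone replicate 1 was the lowest of the treated arrays on both, and after quantile normalization the groups overlapped at 0.21.

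Genes that start autophagy had values near 0. Becn1 encodes beclin 1 of the lipid kinase complex, and its values were 1.97, 1.93 and 1.92 after corn oil and 2.00, 2.04 and 2.10 after anthraquinone. The groups were apart by a small step, 0.11 ± 0.07 (limma adjusted p = 0.457), also after quantile normalization (0.07). Ulk1, the gene of the initiating kinase, had 0.08 ± 0.07 (0.006 after quantile normalization), with the probes opposed as above. Wipi1, a phosphoinositide-binding protein gene, had 0.10 ± 0.11, Atg7, the activating enzyme gene, 0.03 ± 0.12, and Atg5, whose product joins Atg12, -0.15 ± 0.11, all with overlapping groups. After quantile normalization these 3 had 0.10, 0.03 and -0.15. Nbr1 encodes a cargo receptor related to p62. It had overlapping groups at its brightest probe (1.00, 0.84 and 0.66 after corn oil, 0.85, 0.99 and 1.06 after anthraquinone), with a change of 0.13 ± 0.11 under either scaling (0.13 after quantile normalization). Of its other 2 probes, 1 had 0.18 with all treated values above the controls and 1 had 0.04 with overlap. Tfeb had -0.07 ± 0.10 at its brighter probe under either scaling (-0.07 after quantile normalization), with the treated values inside the control range. Its other probe had -0.12, with anthraquinone replicate 3 just below the controls.

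**Figure D4:**
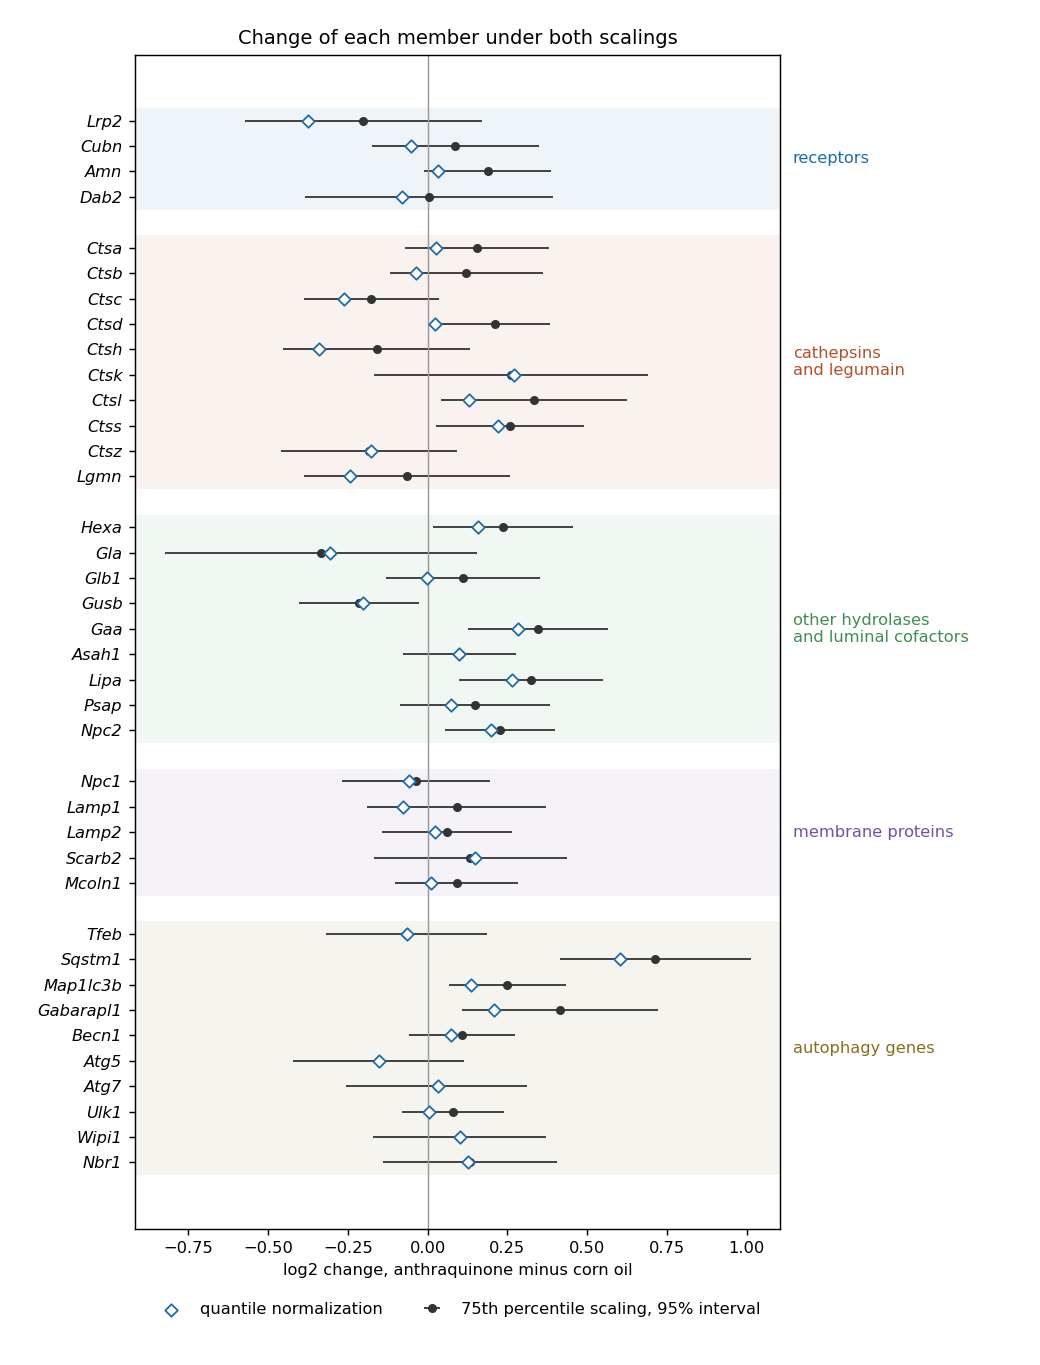
Each line is a gene, and the horizontal axis gives the log2 change, with black points and 95% intervals for 75th percentile scaling and open diamonds for quantile normalization. The Sqstm1 interval runs from 0.42 to 1.01, and most diamonds of the receptor and cathepsin genes lie to the left of their points.

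Treated animals differed among themselves. The median deviation from the corn oil mean in anthraquinone replicates 1, 2 and 3 was 0.06, 0.16 and -0.17 for the receptor genes and 0.05, 0.26 and 0.03 for the cathepsin and legumain genes. It was 0.15, 0.24 and 0.17 for the other hydrolases and cofactors, and -0.02, 0.19 and 0.03 for the membrane proteins. Replicate 2 was thus the highest in these 4 groups. In the autophagy genes the medians were 0.03, 0.17 and 0.19, with replicate 3 the highest.

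Further genes of the pathway were taken from 9 lists, and 200 of the 231 listed genes were tested. With limma, 0 of 200 passed the adjusted test, and at an unadjusted p under 0.05, 24 were higher and 9 lower, where 9.43% and 7.69% of all entries were. Treated values were above all control values in 52 genes and below in 13, where 14.9% and 10.3% of all entries were. After quantile normalization they were above in 27 and below in 24 of the 200, where 12.0% and 10.6% of all entries were. Of the 99 genes of these lists in the brightest class, 14.1% were higher at an unadjusted p under 0.05 and 31.3% had treated values above all controls. Both shares were below the 23.4% and 36.5% of all entries in that class. After quantile normalization 8.08% of the 99 had treated values above all controls, against 17.3% of entries in that class. The median change was 0.05, or 0.01 after quantile normalization. The lists were the endocytic machinery (29 tested, 3 higher and 1 lower at an unadjusted p under 0.05), other hydrolases (36, 5 and 2), cystatins (4, 2 and 0) and other lysosomal membrane proteins (22, 1 and 3). The remaining ones were subunits of the proton pump V-ATPase (20, 4 and 0), lysosomal sorting (19, 2 and 0), mTORC1 and TFE factors (23, 3 and 1), other autophagy genes (39, 2 and 1) and mitophagy genes (8, 2 and 1).

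In the endocytic list, Vps26a, a retromer subunit gene, had 0.45 ± 0.08 (limma adjusted p = 0.159). Rab5a, the early endosome GTPase gene, had 0.22, Rab38, a GTPase gene of lysosome-related organelles, had -0.46, and the clathrin light chain gene Clta had 0.18 (-0.007 after quantile normalization). Among further hydrolases, the lysosomal phospholipase gene Pla2g15 had 0.57 ± 0.15 and the hyaluronidase gene Hyal2 0.42 ± 0.11. The iduronidase gene Idua had -0.42 ± 0.08 and the gamma-glutamyl hydrolase gene Ggh -0.58 ± 0.22. Cst6, the gene of cystatin E/M, which inhibits legumain and cathepsins, had 0.59 ± 0.20.

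The highest and the lowest change of the 200 genes were in the membrane list. The glycoprotein gene Gpnmb had 1.18 ± 0.15, the highest, or 2.27-fold (limma adjusted p = 0.107). The channel genes Mcoln2 and Mcoln3, relatives of Mcoln1, had -1.61 ± 0.48, the lowest, and -0.30 ± 0.12, and the amino acid sensor gene Slc38a9 had -0.18 ± 0.08. Gpnmb and Mcoln2 were both dim. Gpnmb had means of -2.73 after corn oil and -1.55 after anthraquinone. Mcoln2 spread widely, with values of -2.09, -1.98 and -2.79 after corn oil and -3.28, -4.97 and -3.44 after anthraquinone. The V-ATPase subunit genes Atp6v1f, Atp6v1g1 and Atp6v0e2 had 0.32, 0.29 and 0.20 with groups apart under both scalings. Of 20 such subunit genes, 16 had changes above 0, and of the 16 in the brightest class 13 did, where 72.7% of all entries in that class did.

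Regulators and sorting genes were named by the same rule. Flcn, the folliculin gene of the lysosomal nutrient signal, had 0.25, the calcineurin subunit gene Ppp3cb 0.23 and Tfec, a relative of Tfeb, 0.37, while the kinase gene Mtor had -0.19. The tethering gene Vps18 and the adaptor gene Ap3d1 each had 0.21. After quantile normalization Vps18 had 0.21 with groups apart and Ap3d1 0.06 with overlap. Atg12 had 0.22, the LC3 gene Map1lc3a 0.23 (0.11 with overlapping groups after quantile normalization) and Ei24, an endoplasmic reticulum protein gene with a role in autophagy, -0.23. Among mitophagy genes, the receptor gene Bnip3 had 0.49 ± 0.15 and Phb2, the prohibitin 2 gene, 0.17 (0.002 after quantile normalization).

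**Figure D5:**
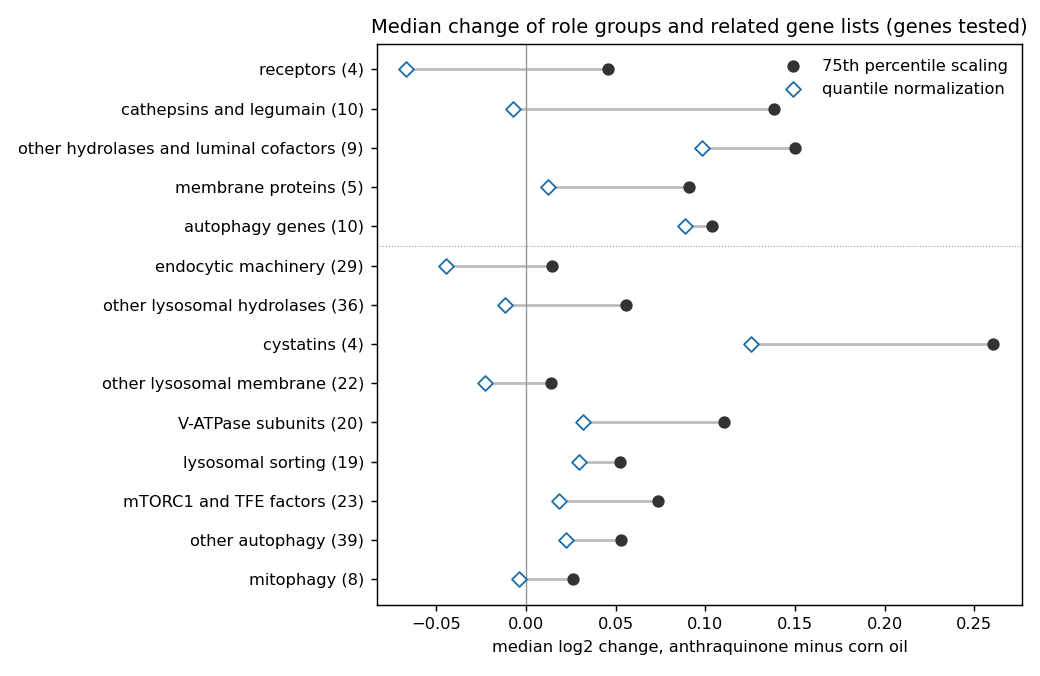
The horizontal axis gives the median log2 change of each of the 5 role groups (above the dotted line) and the 9 further lists (below it), with the number of genes tested in brackets, black points for 75th percentile scaling and open diamonds for quantile normalization. Every diamond lies to the left of its point, and the hydrolase and autophagy groups keep medians of 0.10 and 0.09.

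Other cell types of the cortex were followed by their own markers, of which 0 passed the adjusted limma test. Median changes were -0.13 for 6 lymphocyte markers (Cd3d 0.10 and Cd3g 0.37, with Cd3e not well above background) and 0.01 for 6 endothelial markers (Pecam1 -0.13, Kdr 0.009, Cdh5 0.04). They were 0.11 for 5 fibroblast markers (Col1a1 -0.27, Col1a2 0.20, Col3a1 -0.007) and -0.08 for 5 podocyte markers (Nphs1 -0.16, Wt1 -0.05). Markers of the thick ascending limb had -0.18 over 4 genes (Umod -0.03, Cldn16 -0.40), principal cells -0.40 over 5 (Aqp2 -0.34, Aqp3 0.46, Scnn1b -0.72) and intercalated cells -0.05 over 5 (Slc4a1 0.35, Foxi1 -0.07, Slc26a4 -0.05). After quantile normalization the medians of these 7 lists, in the same order, were -0.10, -0.12, 0.06, -0.05, -0.27, -0.47 and -0.13. The part of cell composition in the values above was not tested.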

How the data were processed

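Renal cortex of 6 rats was measured on 6 arrays, in groups of 3 as their titles state. The design text calls the samples of a group biological replicates, so p-values measure the spread between these animals. The deposited files hold linear intensity per spot from Agilent Feature Extraction 10.7.1.1, corrected for background by that software, per the file headers; the submitters' processing notes give version 10.7. The authors' deposited value table equals that intensity divided by the array's 75th percentile within 0.01 log2 for 90.7 to 97.0% of probes, with column medians of 0.109 to 0.114. Its scale is not given in the sources used here.

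Here, the log2 processed intensity was scaled to the 75th percentile of its array. Spots with an outlier flag (2 to 13 per array) were dropped. Probes entered the test if every array of 1 or both groups was well above background (41310 of 61657 probes). Probe accessions gave 27460 probes a symbol through the RefSeq table of GRCr8. The arrays were designed on rn4, per the file headers, and only promoter coordinates are GRCr8's. The brightest probe stood for a gene and unnamed probes for themselves (32663 entries). Of 67 member probes, 66 were tested and none was saturated. The test was limma 3.58.1 in R 4.3.3 (lmFit, then eBayes), adjusted by Benjamini-Hochberg over every entry, with a threshold of 0.05. The procedure was checked on simulated data. Tables and figures used Python 3.11.15, pandas 2.3.3 and matplotlib 3.10.9.

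All member genes were named. From each further list, up to 3 genes per direction with unadjusted p under 0.05 and groups apart were named by smallest p, and from each marker list its first 3 genes. Slc12a1 had no matched probe, and 3 genes that this rule names are not reported here. Members and lists were chosen with earlier results of these data known. Alternatives were quantile normalization, median scaling, normexp on the median spot signal (offset 50), other filters, the mean of probes, the value table, a variance trend, array weights, slide and replicate blocks, and leaving out each array.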

Additional observations from a re-analysis of the deposited data

How the results depend on the processing

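The count of 9 entries past the adjusted threshold was 16 with normexp, 58 with a variance trend, 6609 without the filter on dim probes (5893 of them outside the filtered entries), 2 with the slide as a block and 1 to 25 when arrays were left out in turn. Without the filter, 12062 entries passed unadjusted, and 1 member, Sqstm1 (0.71, limma adjusted p = 0.0202), passed adjusted; in the other 16 settings 0 members did. The 11 members past the unadjusted threshold were 7 with the slide block and 4 to 11 without single arrays. Over all entries, 5593 passed unadjusted, and 4631 did with the slide block. Such counts for the replicate block and for leaving out other arrays are not given here. Replicate numbers did not pair the samples (correlations of same-numbered deviations 0.028, -0.059 and -0.007), and with a replicate block 1 entry and 5 members passed those thresholds. Quantile normalization moved the cathepsin median to -0.0070 and the other hydrolase median to 0.10, and turned Cubn to -0.052, Dab2 to -0.081, Ctsb to -0.037, Glb1 to -0.0024 and Lamp1 to -0.077; the cause was not tested. Without single arrays, medians ranged from 0.10 to 0.21 for other hydrolases and from 0.0059 to 0.13 for membrane proteins. Dab2 was -0.015 with normexp, -0.025 with the mean of probes and -0.070 with the slide block, and Ulk1 was -0.069 with the mean of probes. Npc1 was 0.0019 with array weights and 0.042 with the slide block, and Atg7 was -0.0090 with the slide block. Without single arrays the ranges were -0.13 to 0.16 for Dab2, -0.099 to 0.042 for Npc1, -0.061 to 0.11 for Atg7, -0.16 to 0.0030 for Tfeb, -0.21 to 0.0064 for Lgmn, -0.0061 to 0.16 for Cubn and -0.012 to 0.15 for Lamp1. The single Sqstm1 probe past the adjusted threshold in the main fit lost that call with the replicate block (1.03, limma adjusted p = 0.178) and kept it in 4 of 12 settings. Corn oil replicate 1 is alone on its slide, so the slide block, also among the 12, is the same fit as leaving that array out (1.05, limma adjusted p = 0.171). Another Sqstm1 probe, A_44_P367556, passed only with the variance trend (0.88, limma adjusted p = 0.0482). Naming probes by a gene name column was not run, since the scanner files used here hold none. Gla, the dimmest member, had the largest standard error of the members.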
